A study of Homo sapiens with 4 samples.

Results

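CETP, STARD4 and NPC1L1 encode proteins that carry cholesterol or its esters, and their transcripts were compared in MEG-01 cells with and without depletion of OGT. These 3 genes were taken by name from a table of 426 genes that the authors called as changed in the same comparison. MEG-01 is a human megakaryoblastic leukaemia line, labelled here as producing platelet-like particles, and OGT is the enzyme that adds O-linked N-acetylglucosamine to nuclear and cytosolic proteins. Total RNA was sequenced from 2 wild-type (WT) libraries and 2 libraries with the genotype OGT depletion, made with a single lentiviral vector that encodes spCas9 and an sgRNA to OGT. The labels give the WT cells no vector of their own, so a control guide is not part of the comparison, and they do not say whether the depleted cells were a clone or a pool, or whether the replicates were separate cultures. The columns of the treated libraries are headed OGTi, with numbers that match the titles CR_OGT.

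Cholesterol reaches a cell inside lipoproteins or by synthesis. SREBP2 is a transcription factor that is activated when sterols are low and then switches on uptake and synthesis genes. LXR, a receptor for oxysterols, switches on export and lipoprotein genes when sterols are high. CETP is a secreted protein that exchanges cholesteryl esters and triglycerides between plasma lipoproteins, and its gene is a known LXR target. STARD4 is a small cytosolic protein of the START family that moves cholesterol between membranes, and NPC1L1 is the membrane protein through which enterocytes and hepatocytes take up free cholesterol, the target of ezetimibe. STARD4 and NPC1L1 are known SREBP2 targets. CETP and NPC1L1 are best known from liver, adipose tissue or gut rather than from the platelet lineage.

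The stretches before the start sites of the 3 genes are shown because sterol control of such genes is usually placed there. All 3 were matched by symbol in RefSeq's promoter sequences (GRCh38.p14), and each is printed 5′ to 3′ on the strand of the gene, from 250 bases before the RefSeq start up to the outermost start in GENCODE v29. Capitals mark every match to the motifs named below.
STARD4: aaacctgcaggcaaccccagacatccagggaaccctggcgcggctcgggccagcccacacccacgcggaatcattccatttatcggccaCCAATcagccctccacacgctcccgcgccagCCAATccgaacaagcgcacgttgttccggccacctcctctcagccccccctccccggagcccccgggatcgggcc
CETP: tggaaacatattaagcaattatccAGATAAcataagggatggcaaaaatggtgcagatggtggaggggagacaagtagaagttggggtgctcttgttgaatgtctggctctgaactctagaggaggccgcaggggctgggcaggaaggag
NPC1L1: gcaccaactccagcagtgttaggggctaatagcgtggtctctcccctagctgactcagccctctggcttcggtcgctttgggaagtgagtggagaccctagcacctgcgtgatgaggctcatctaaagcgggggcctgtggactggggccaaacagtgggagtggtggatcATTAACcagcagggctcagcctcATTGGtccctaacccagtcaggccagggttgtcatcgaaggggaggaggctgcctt
The printed stretches are chr5:111512591-111512785 (minus strand), chr16:56961700-56961849 (plus strand) and chr7:44541331-44541580 (minus strand).

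The search covered the full 250 bases on both strands. STARD4 held the NF-Y letters CCAAT at 161 and at 130 bases before the start (first base of each match) and the SP1 letters GGGCGG at 52 bases before it, between the printed stretch and the RefSeq start. CETP held GGGCGG at 39 bases before the start, also outside the printed stretch, and the GATA letters AGATAA at 226. NPC1L1 held CCAAT on the opposite strand at 56 bases before the start and the HNF1 letters GTTAAT on the opposite strand at 79. Over 34943 promoters of the same length, CCAAT occurred in 32.0%, GGGCGG in 42.6%, AGATAA in 9.19% and GTTAAT in 6.24%. None of the 3 windows held the sterol regulatory letters TCACNCCAC (0.881% of promoters), the E-box CACGTG (6.32%) or the nuclear receptor unit AGGTCA (12.1%). The motifs searched do not overlap one another in these windows. GC content of the windows was 70.4% in STARD4, 54.8% in CETP and 59.2% in NPC1L1, beside a median of 58.0% over all promoters. These matches describe letters in these windows only.

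The library totals implied by count, length and FPKM were 17643474 to 19883586 reads, and the listed genes took 3.97% to 4.26% of them. No source used here says which reads these totals include. OGT was lower in both depleted libraries: its normalized read count, the raw count divided by a size factor per library, was 16012 and 19190 in WT replicates 1 and 2 and 9124 and 12185 in the depleted replicates, a mean of 60.5% of WT. Of 10 megakaryocyte markers only TUBB1, the platelet beta-tubulin, had a row, with normalized counts of 126 and 136 in WT and 264 and 336 after depletion (2.29-fold). Of 8 hepatocyte, 7 enterocyte, 6 macrophage and 5 adipocyte markers none had one. The authors called 3.24% of tested genes, so few or no rows are usual in lists this short. These marker counts are therefore no finding about cell type. The other markers are not analysed here, so the labelled cell type was not checked against them and the part of other cell types in the results was not tested.

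The members were chosen by measured values, the authors' calls on these same libraries. The authors' deposited table holds genes with an adjusted p up to 0.0497, and 3.24% of about 13154 tested genes were called (1.89% higher and 1.35% lower after depletion). Members had adjusted p-values of 5.39e-05 for CETP, 9.71e-05 for STARD4 and 0.00889 for NPC1L1 in the authors' deposited table, and genes just outside its threshold are not analysed here. All values of the members that follow are therefore a description, with no test. That 3 of 3 had groups that did not overlap is no finding either, since 100% of the listed genes had such groups.

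CETP, the secreted ester transfer protein, was scarce in WT cells and about 3 times as abundant after depletion. Its raw read counts were 55 and 51 in WT replicates 1 and 2 and 176 and 188 in the depleted replicates. The FPKM (reads per kilobase of gene length, scaled to the library total) was 1.68 and 1.61 in WT and 4.94 and 5.57 after depletion. Both depleted libraries were far above both WT libraries, and replicates of a group lay close together. Normalized counts averaged 55.2 ± 3.81 in WT and 173 ± 9.52 after depletion (SD, n = 2), which is 3.14-fold, with 2.88-fold between the closest and 3.43-fold between the farthest pair of libraries. The log2 fold change was 1.65 ± 0.19 (SE, edgeR). Counting error alone gives a coefficient of variation of 7.29% at the highest of these counts and more at the others, and WT replicate 1 was at 110% of replicate 2 and depleted replicate 1 at 92.5% of replicate 2, so the spread between replicates was of the size of counting error. The CETP row (ENSG00000087237) spans chromosome 16 from 56995762 to 57017757 on the plus strand in hg19, with a gene length of 1791 b.

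STARD4, the cytosolic cholesterol carrier, was the most abundant of the 3 genes and the one that was lower after depletion. Raw counts were 2978 and 2699 in WT replicates 1 and 2 and 1857 and 1921 in the depleted replicates. Its FPKM was 35.4 and 33.2 in WT and 20.3 and 22.1 after depletion. Its lowest WT library thus stood clear of the highest depleted library. Mean normalized counts were 2958 ± 252 in WT and 1800.2 ± 58.0 after depletion (SD, n = 2), or 60.9% of WT, and single pairs of libraries gave ratios of 0.561 to 0.662. The log2 fold change was -0.72 ± 0.12 (SE, edgeR). At this depth counting error was 1.83% to 2.32%, smaller than the gap between WT replicates, of which the first was at 113% of the second. STARD4 (ENSG00000164211) lies on the minus strand of chromosome 5, 110831731 to 110848288 in hg19, with a gene length of 4606 b. In GENCODE v29 its first bases overlap the antisense gene STARD4-AS1, and no source used here gives the strand setting of the counting, so reads of both genes in the overlap cannot be told apart.

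NPC1L1, the cholesterol uptake protein of the gut, was also scarce in WT cells and was higher after depletion, by less than CETP. Raw counts were 168 and 205 in WT replicates 1 and 2 and 357 and 384 in the depleted replicates. FPKM was 1.82 and 2.30 in WT and 3.56 and 4.04 after depletion. Each depleted library exceeded each WT library, and the second replicate was the higher one in both groups. Normalized counts averaged 194 ± 24.2 in WT and 353 ± 21.1 after depletion (SD, n = 2), a ratio of 1.82-fold, with 1.60-fold between the closest and 2.08-fold between the farthest pair of libraries. The log2 fold change was 0.86 ± 0.16 (SE, edgeR). It was 0.38 when DESeq2's median-of-ratios scaling was computed from the 426 genes themselves. That scaling moves the median log2 fold change of all of them by -0.49 and takes STARD4 to -1.20. Each of the 3 genes kept its direction under all 12 alternatives. Leaving out a library, blocking by replicate or fitting DESeq2 with the same size factors could not have reversed a direction. The groups of every listed gene did not overlap, and an expression filter removed no gene. NPC1L1 (ENSG00000015520) occupies chromosome 7 from 44552134 to 44580914 on the minus strand in hg19, with a gene length of 5048 b.

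**Figure D1:**
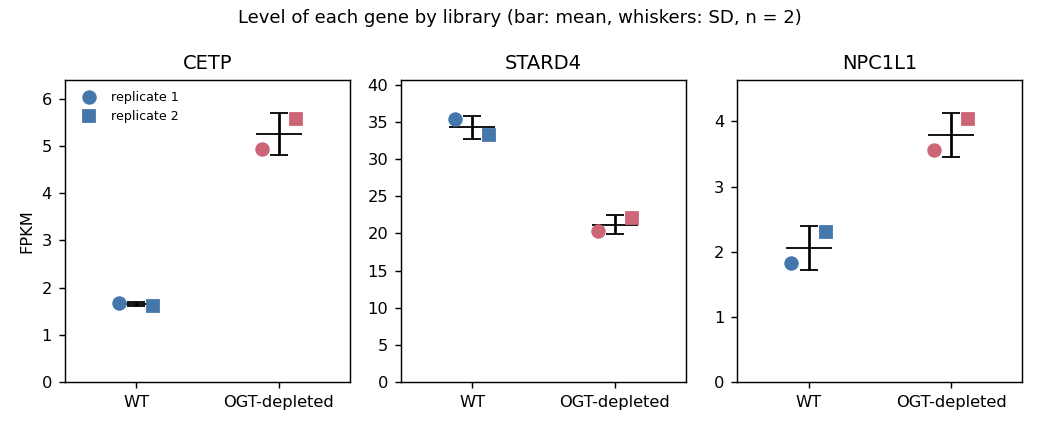
FPKM of CETP, STARD4 and NPC1L1 in each library (circles, replicate 1; squares, replicate 2; blue, WT; red, OGT-depleted), with the group mean and SD of 2 libraries; each vertical axis starts at 0 and has its own range. CETP goes from 1.68 and 1.61 to 4.94 and 5.57, NPC1L1 from 1.82 and 2.30 to 3.56 and 4.04, and STARD4 from 35.4 and 33.2 down to 20.3 and 22.1.

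Set against each other per length, STARD4 stood nearer to CETP and to NPC1L1 after depletion. The FPKM of STARD4 was 21.1 and 20.6 times that of CETP in WT replicates 1 and 2 and 4.10 and 3.97 times in the depleted replicates. Against NPC1L1 it was 19.4 and 14.4 times in WT and 5.70 and 5.48 times after depletion. The order of the scarce pair turned: the FPKM of NPC1L1 was 1.08 and 1.43 times that of CETP in WT and 0.720 and 0.725 times that of CETP after depletion. In WT replicate 1 the pair differed by less than the spread between the NPC1L1 replicates, so their order in WT is not firm. Among the 426 listed genes, ranked from the highest FPKM in each library, STARD4 stood at 91 and 106 in WT and at 151 and 144 after depletion, CETP at 368 and 379 and then 318 and 311, and NPC1L1 at 366 and 355 and then 350 and 346. A ratio of bulk FPKM cannot tell fewer cells with a transcript from less transcript per cell.

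The authors' own fold changes were smaller, in the same order of size. The authors' deposited table gives a log2 fold change of 1.04 for CETP, 0.67 for NPC1L1 and -0.64 for STARD4. Each lies nearer to 0 than the log2 ratio of the authors' own group means does, as for all 426 genes. By that deposited estimate CETP ranked 19 and NPC1L1 146 in size of 248 genes that were higher, and STARD4 47 of 178 that were lower.

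Other sterol and lipoprotein genes were looked up in 10 overlapping lists with 164 genes in all, and 9 of these had a row (5.49%). The 3 members are among the 9 because they were taken from the called genes, so only the other 6 could have lacked a row. That selection raises the share beside the 3.24% of tested genes that were called. How many of the 164 were tested is not known. Of the 9 genes, 5 were higher and 4 lower after depletion. Their median log2 fold change was 0.66, beside 0.56 over all listed genes. The higher genes were CETP, APOE, NPC1L1, APOC1 and STAB1, and the lower ones ABCA2, STARD4, HSD3B7 and LRP8. They were divided in that way under each of the 12 alternatives in scaling, unit and libraries. Leaving out libraries, blocking by replicate or DESeq2 with the same size factors could not change this division, because the groups of each listed gene did not overlap. The lists were chosen with earlier results of these data known, and their counts are a description.

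Like CETP, the apolipoprotein genes in the table were higher, and these were the most abundant transcripts of the group. APOE encodes the apolipoprotein through which remnant particles bind their receptors, and cells also use it to carry cholesterol out. FPKM of APOE was 333 and 312 in WT replicates 1 and 2 and 775 and 608 in the depleted replicates. Mean normalized counts of APOE were 7284 ± 627 in WT and 15443 ± 3087 after depletion (SD, n = 2), or 2.12-fold. APOC1, its neighbour on chromosome 19, encodes a small apolipoprotein known to inhibit CETP. The FPKM of APOC1 was 129 and 106 in WT and 229 and 186 after depletion, and its normalized counts were 1.75-fold higher on average. In both genes the depleted libraries lay above the WT libraries, and replicate 1 was the higher one in each group. With CETP these were the 3 of 27 plasma lipoprotein genes with a row (11.1%). The same 3 were those of 19 LXR target genes with a row (15.8%), beside 3.24% of tested genes called. All 3 were higher, with a median log2 fold change of 1.08, and 248 of all 426 listed genes were higher. CETP had a row by selection and the lists share their genes, so these counts are a description.

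Among the 22 known SREBP2 targets looked up, STARD4 and NPC1L1 were those with a row, 1 lower and 1 higher. Both had a row by selection. None of 24 cholesterol synthesis genes, among them HMGCS1 and SQLE, had a row, and none of 22 genes for SREBP and oxysterol sensing had one. With 3.24% of tested genes called, lists of this size would often have no row, so these counts are no finding. Genes with no row are not analysed here, so their levels are unknown.

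The receptors with a row went both ways. LRP8, a receptor that binds APOE and reelin, had FPKM of 40.0 and 50.7 in WT and 26.8 and 35.9 after depletion, 68.2% of WT in normalized counts. STAB1, a scavenger receptor that takes up modified lipoproteins, had FPKM of 24.0 and 29.6 in WT and 40.7 and 44.9 after depletion, a ratio of 1.58-fold. These were 2 of the 19 lipoprotein uptake genes looked up (10.5%), 1 higher and 1 lower, beside 3.24% of tested genes called. How many of the 19 were tested is not known, so these counts are a description. STAB1 was the gene of this set closest to no difference under another scaling, with a log2 fold change of 0.66 as reported and 0.17 with the median-of-ratios scaling.

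The list of export genes and the list for oxysterols, bile acids and steroids each had 1 gene with a row, and both were lower. APOE, which cells also use to carry cholesterol out, was in other lists and was higher. ABCA2, a transporter of endosomes and lysosomes linked to sterol trafficking, had FPKM of 11.1 and 13.4 in WT and 6.51 and 8.15 after depletion, 58.9% of WT in normalized counts, and was the 1 of 11 export genes with a row. HSD3B7, an enzyme of bile acid synthesis, had FPKM of 22.0 and 21.9 in WT and 14.2 and 13.3 after depletion, 61.9% of WT, and was the 1 of 15 genes for oxysterols, bile acids and steroids with a row. No gene of the 9 for esterification and hydrolysis had a row. With 3.24% of tested genes called, few or no rows are usual in lists this small. These counts and their directions are thus no finding about export or bile acids.

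**Figure D2:**
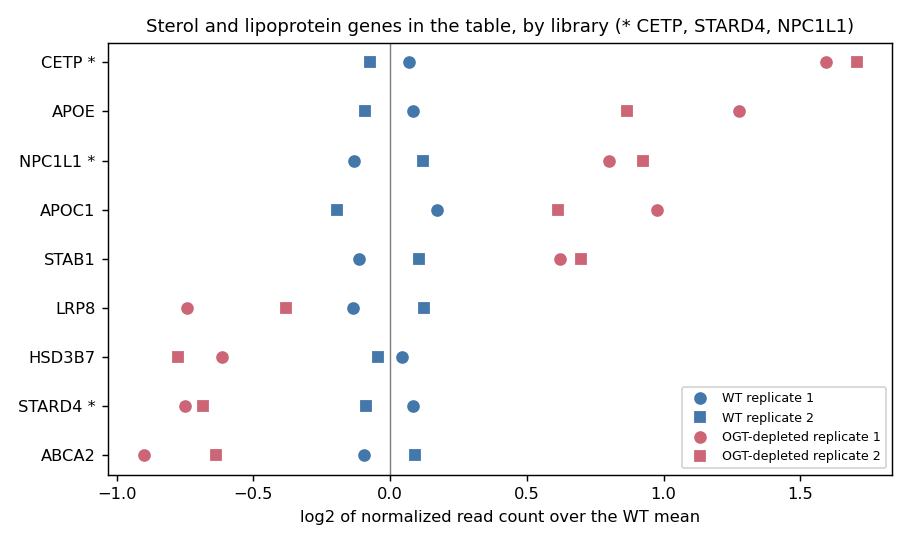
Normalized read count of each sterol or lipoprotein gene in the table, as the log2 ratio to its WT mean, by library (circles, replicate 1; squares, replicate 2; blue, WT; red, OGT-depleted). The red points of 5 genes lie right of all blue points, with CETP farthest out (log2 fold change 1.65), and those of 4 genes lie left of them, down to ABCA2 (-0.76).

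Few other genes of the members' protein families had rows, as few would with 3.24% of tested genes called. Of 15 START family genes STARD4 and DLC1 had rows, and both were lower; DLC1, a GTPase-activating protein that ends in a START domain, was at 68.0% of WT. NPC1L1 was the 1 of 12 genes of the sterol-sensing domain family with a row, and CETP the 1 of 13 genes of the BPI and LBP fold family.

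Over all listed genes the median log2 fold change was 0.90 in the 248 that were higher and -0.63 in the 178 that were lower, so CETP (1.65) stood above the median of its direction, NPC1L1 (0.86) slightly below it, and STARD4 (-0.72) slightly beyond its own. Genes of low abundance with smaller differences may have missed the authors' threshold and are not analysed here.

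**Figure D3:**
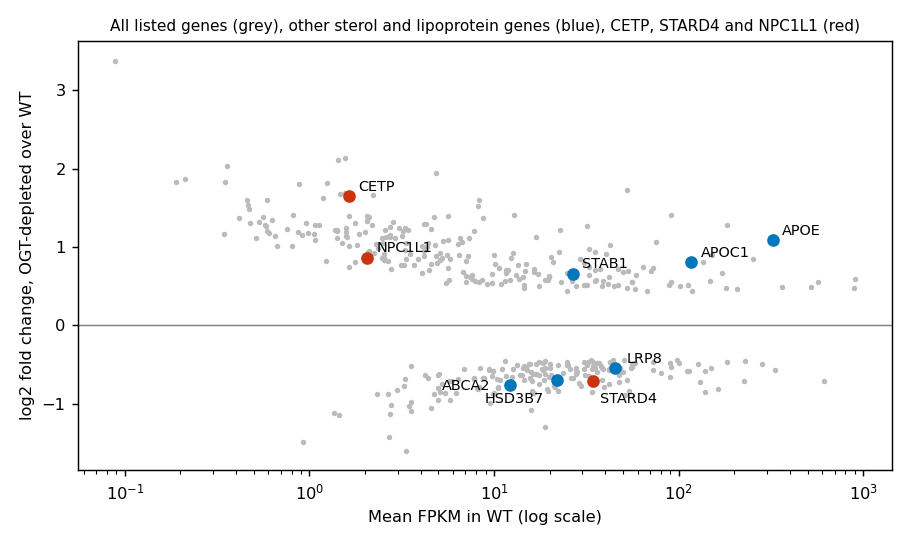
Log2 fold change of every listed gene against its mean FPKM in WT (log scale), with CETP, STARD4 and NPC1L1 in red and the other sterol and lipoprotein genes in blue. CETP and NPC1L1 lie at the low-abundance end with log2 fold changes of 1.65 and 0.86, APOE lies near the high end at 1.08, and STARD4 (-0.72) lies among the other lower genes.

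Chromosomal surroundings differed between the members. Within 2 Mb of CETP 4 other genes had rows, and they were split: the metallothionein genes MT1G and MT2A, 294 kb and 352 kb away, were higher (log2 fold changes of 0.72 and 0.89), while GPR56, an adhesion receptor, and SLC6A2, the noradrenaline transporter, were lower (-0.49 and -0.85). STARD4 and NPC1L1 had 0 listed genes within that distance. On the whole chromosomes, 9 of 17 listed genes were higher on chromosome 16, 14 of 21 on chromosome 7 and 6 of 14 on chromosome 5, beside 248 of all 426.

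The listed genes whose pattern over the 4 libraries was most like that of a member were found by the Euclidean distance between log2 normalized counts (with 0.5 added) centred on each gene's mean. For STARD4 the nearest was IQGAP2, a scaffold protein gene also on chromosome 5, at a distance of 0.0138, with normalized counts of 1871 and 1639 in WT and 1044 and 1097 after depletion. NAA16 (0.0832), a subunit of a protein acetyltransferase, and LEF1 (0.0897), a transcription factor of Wnt signalling, came next, while the median distance to all other genes was 1.30. NPC1L1 was nearest to HERC6 (0.0575), ZBED1 (0.0603) and the collagen gene COL14A1 (0.0717), against a median of 0.649. CETP was nearest to the noncoding RNA RP11-318G21.4 (0.108), the zinc finger gene ZNF595 (0.129) and VCX (0.169), against a median of 1.13. These distances rest on 4 libraries and on genes all selected for a difference between the same groups. No sterol or lipoprotein gene was among the 3 nearest of any member. Only 9 of the 426 listed genes, the members included, were of that kind, so this is no finding.

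Over the listed genes, replicates of a group also differed with gene length, but the members did not all follow this trend. Replicate 1 minus replicate 2, on the log2 scale, had a median of 0.11 in WT and 0.20 after depletion in the shortest of 3 length classes of listed genes, and of -0.10 and -0.12 in the longest. The same difference was 0.14 and -0.11 for CETP (1791 b), 0.17 and -0.07 for STARD4 (4606 b) and -0.25 and -0.12 for NPC1L1 (5048 b). The median length of listed genes was 3538 b. CETP after depletion did not share the sign of the shortest class, nor STARD4 in WT that of the longest. For each of the 3 genes the difference between replicates was smaller in size than the difference between the groups. Selection of the genes on that group difference favours this, so it does not bear on gene length. The part of gene length in the group differences was not tested.

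**Figure D4:**
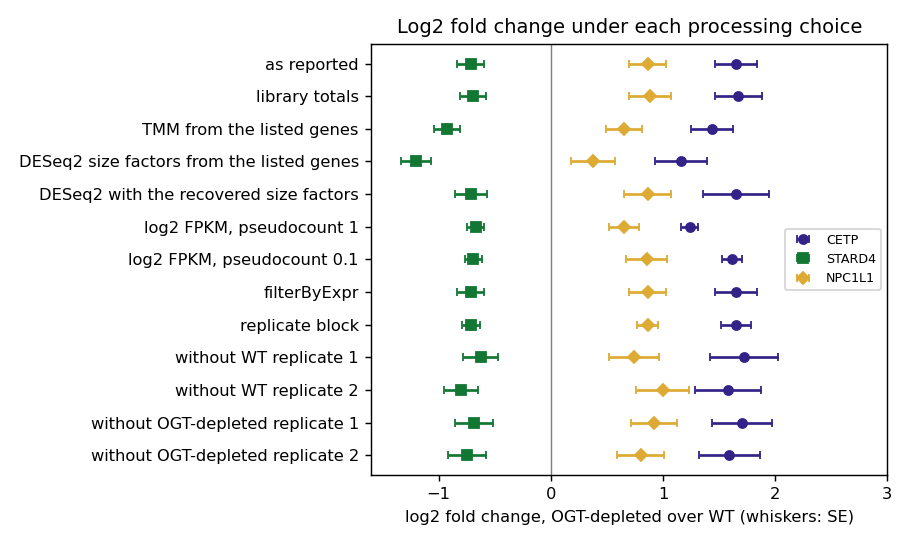
Log2 fold change of CETP (circles), STARD4 (squares) and NPC1L1 (diamonds) as reported and under each of 12 alternatives, with SE as whiskers. STARD4 stays left of 0, between -1.20 and -0.63, NPC1L1 right of it, between 0.38 and 1.00, and CETP between 1.16 and 1.72.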

How the data were processed

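The table holds raw read counts per gene that the authors deposited, FPKM values computed by the authors, and the authors' own group means, a deposited signal equal to the mean of counts divided by size factors. It also holds the deposited log2 fold changes and the deposited p-values with their adjusted p-values, per the file headers. The submitters' processing notes name the build hg19 and the tools TopHat, STAR 2.5, DESeq2 and CASAVA 1.8 but give them no roles. Read counter, annotation release and strand setting were not given in the sources used here. The table lists called genes only.

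Library totals were recovered from count, length and FPKM, and size factors (0.950, 0.971, 1.06 and 1.04 for WT replicates 1 and 2 and depleted replicates 1 and 2) by least squares from the deposited means. Log2 fold changes came from edgeR 4.0.16 (glmQLFit, R 4.3.3) on the counts of all 426 genes, with library sizes proportional to those factors. The SE was obtained by dividing the absolute log2 fold change by the root of edgeR's F. The script was tested on simulated data. Dispersion was estimated from called genes alone, which were selected for groups that differ, so the SEs may be too small. DESeq2 1.42.0 was an alternative. With the same size factors it gave SEs of 0.29 for CETP, 0.14 for STARD4 and 0.21 for NPC1L1. Replicates differed by more than counting noise (chi-square per gene 14.9 in WT and 22.3 after depletion). Members, lists and alternatives were chosen with earlier results of these data known. Genes named are the members, OGT, listed sterol genes and family or marker genes with a row, genes within 2 Mb of a member and the 3 nearest in pattern. Some genes of these lists are not reported here and were taken out of the list counts.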

Additional observations from a re-analysis of the deposited data

How the results depend on the processing

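Direction was the same for CETP, STARD4 and NPC1L1 under all 12 alternatives. The number of sterol and lipoprotein genes that were higher was 5 under each, a check added after seeing the data. Neither result could change on leaving out a library, blocking by replicate or using DESeq2 with the same size factors. The reason is that the groups of all 426 genes did not overlap. With TMM computed on the 426 genes themselves, which shifts the median of all listed genes by -0.21, the log2 fold changes were 1.44 for CETP, -0.93 for STARD4 and 0.65 for NPC1L1. With DESeq2's median-of-ratios scaling on the same genes, which shifts it by -0.49, they were 1.16, -1.20 and 0.38 in that order. Both scalings rest on called genes alone. On log2 FPKM with a pseudocount of 1, which compresses scarce genes, CETP was at 1.24 and NPC1L1 at 0.65. Leaving out each library in turn gave 1.58 to 1.72 for CETP, -0.80 to -0.63 for STARD4 and 0.74 to 1.00 for NPC1L1. The group left with 1 library was then assumed to vary like the other. With the replicate number as a block the values were 1.65, -0.71 and 0.87. Same-numbered replicates deviated together across genes (r = 0.50), but the labels give no reason for pairing. All 426 genes passed filterByExpr, so that alternative repeated the reported fit. Depth limits CETP most, with 51 to 188 reads per library.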
